A study of Homo sapiens with 50 samples.

Results

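Directly hit cells were compared with the bystander cells that had shared their dish, in dishes where the bystander cells had responded. The cells were H1299, derived from a human lung cancer of the non-small cell type, used here without any knockdown construct and described in the labels as RAD9 normal. Each dish had an outer part whose cells received 1 Gy of 4He ions at 125 keV per micrometre and an inner part whose cells received none but shared the medium. The 5 bystander positive (BP) samples came from inner parts with a raised frequency of micronuclei, small bodies of chromatin outside the nucleus that mark chromosome damage, and the 5 direct bystander positive (DBP) samples came from the outer part paired with each. RNA was taken at 4 h and hybridised to one-colour Agilent arrays. These 10 arrays, 5 in each group and paired by replicate number, were taken by their labels from the 50 arrays of the series, and no unirradiated array entered the comparison. The remaining arrays hold unirradiated controls (CTL), dishes with bystander cells at background micronuclei (DBN, direct, and BN, bystander) and the same 5 groups of H1299shRAD9, a derivative with an RNA hairpin against the checkpoint gene RAD9.

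The groups differ in more than the ions. Direct cells grew on thin Mylar and bystander cells on a thicker surface, so the growth surface cannot be told apart from the direct hit. Both groups come from dishes selected for the bystander response and from a single cell line. Where cells divide less, fewer cells in mitosis and less RNA of a mitotic gene per cell cannot be told apart in such bulk samples. Cells approaching division switch on a shared set of genes for spindle assembly, chromosome attachment and cytokinesis, and ionizing radiation is known to halt cells in G2 through the ATM and ATR checkpoint kinases. The same damage can start signalling through NF-kB, a family of transcription factors held in the cytoplasm by inhibitor proteins until those are degraded.

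The arrays carried the markers of this line. KRT8 and KRT18, keratins of simple epithelium, VIM, CD44, CDH2 and EGFR were well above background on all 10 arrays, and EPCAM on 1 array. Of 16 markers of other cell types, 6 were well above background on none of the 10, among them PECAM1 of endothelium, COL3A1 and LUM of fibroblasts and the surfactant gene SFTPB, and 8 were well above background on all 10, among them CD14, PTPRC and SFTPC at low intensity, with log2 differences of −0.37, 0.47 and −0.19 and no p under 0.05. Their summed intensity ranged from 1055 to 1502 in DBP and from 519.9 to 1619 in BP. RAD9A had a mean log2 level of 4.13 ± 0.32 (SD, n = 5) in DBP and 3.80 in BP. The share of probes above background by the scanner's stricter mark ran from 59.7% to 71.0% over the arrays. The median intensity was lowest in BP replicates 1 and 2 (68.4 and 95.7, against 139.5 to 197.6 in the other 8 arrays). The share of probes well above background, the median intensity, the number of saturated probes and a 5′ to 3′ index (the median log2 level of the 5′-most minus the 3′-most probe of a gene, over 3045 genes) were compared by exact paired sign-flip tests, 2-sided, which gave p between 0.125 and 0.875, where 5 pairs allow no p below 0.0625. The index was lower in DBP in 4 of 5 pairs. It was −1.83, −1.95 and −1.88 in DBP 1, DBP 2 and BP 2, and between −1.56 and −1.38 in the other 7 arrays. Pairs 1, 2 and 4 were each hybridised on a single slide, and pairs 3 and 5 on separate slides.

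All 31 tested members of the G2/M phase list, genes of mitosis and of the approach to it, lay lower in the directly hit cells, with a median log2 difference of −0.54. Over all 54 genes of that list, tested or not, 48 were lower and 6 higher, with a median of −0.37. The 12 features with the smallest p among those lower in DBP in all 5 pairs by at least 1.5-fold included CENPA, AURKA, CKAP2, CDCA8, CENPE and PSRC1 of that list, and BORA, FAM83D, CCNF and PLK1. On the other side lay RELB and TRAF1, both tied to NF-kB, and the orphan nuclear receptor NR4A1. The 24 differences named ran from 1.51-fold (CHST15) to 2.74-fold (NR4A1), and with 5 pairs fitted alone no feature passed the threshold of the study (p under 0.006 together with a false discovery rate below 10%, by limma with each pair of arrays as a block). That count was 0 of 12186 features tested, or 0%, and the smallest adjusted p was 0.235. Without adjustment, 739 features had a p under 0.05, 235 lower and 504 higher in DBP, while at p under 0.006 there were 40 lower in DBP (0.328% of those tested) and 19 higher (0.156%). Where nothing differs, a share of 0.05 of the features is expected under the first limit and 0.006 under the second. The counts lie near these shares. After normexp background correction 6 features (0.0473%) passed, all higher in DBP and none of them among the 24. The 40 to 19 split became 62 to 8 when arrays were scaled to their 75th percentile, 53 to 11 after quantile normalization and 15 to 36 after normexp background correction. When the spread between samples was estimated from all 10 groups of the series in one fit, with the same log2 differences for the named features, 30 features (0.246%) passed, 22 lower and 8 higher in DBP, although at p under 0.006 alone that fit had 61 lower and 160 higher. With the 5 groups of H1299 alone 3 features (0.0246%) passed, BORA, FAM83D and an unnamed probe, A_33_P3404221, all lower. A gene said to have passed in the fit of all groups did so with all 10. In these 2 fits the block was the cell line and replicate number. Same-numbered arrays of all groups of a line thus shared a block, and not only each DBP and BP pair. Their p-values therefore differ from those of the 5 pairs in more than the estimate of spread.

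**Figure D1:**
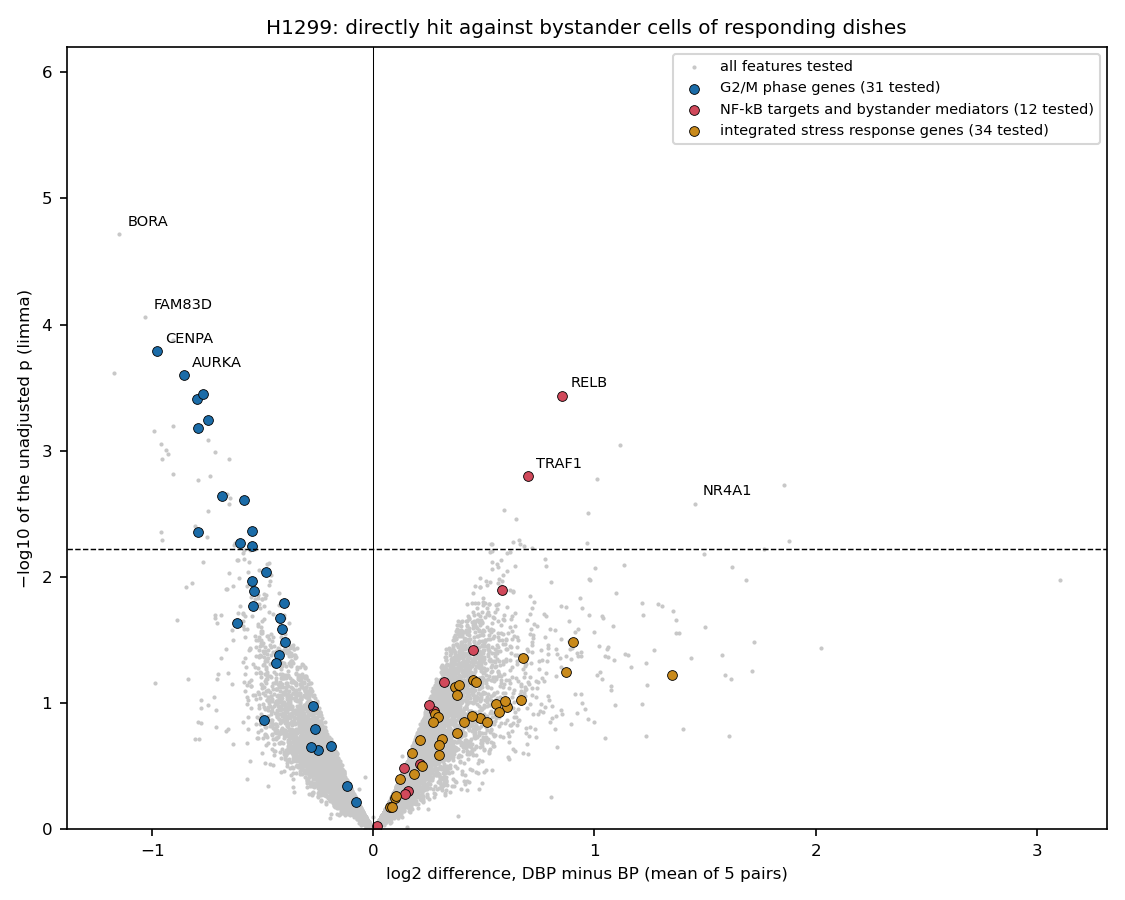
Log2 difference between DBP and BP (x axis, mean of 5 pairs) against −log10 of the unadjusted limma p (y axis) for the 12186 features tested, with blue points for the 31 tested G2/M phase genes, red the 12 tested NF-kB targets and bystander mediators, orange the 34 tested integrated stress response genes, and the dashed line marks the threshold at 0.006. All 31 blue points lie left of 0 and all red and orange points right of it.

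The promoters of several of these mitotic genes are shown because genes of G2 and mitosis are known to share 2 promoter elements, the cell cycle homology region (CHR, searched as TTTGAA) and the CCAAT box (searched as CCAAT), both read on either strand. The windows run from 250 bases before to 50 after the RefSeq transcription start in GRCh38.p14, 5′ to 3′ in the direction of the gene, and each match is in capitals. The 4 genes printed first hold both elements and CKAP2 holds neither. In CDCA8 one CHR and one CCAAT box share bases.
BORA, chr13:72727673-72727972, + strand: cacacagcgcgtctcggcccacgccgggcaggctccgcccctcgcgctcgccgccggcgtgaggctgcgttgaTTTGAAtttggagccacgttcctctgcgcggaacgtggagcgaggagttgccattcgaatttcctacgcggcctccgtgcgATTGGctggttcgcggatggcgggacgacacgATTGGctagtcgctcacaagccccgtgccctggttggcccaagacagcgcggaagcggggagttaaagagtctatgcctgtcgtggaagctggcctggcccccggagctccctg
CENPA, chr2:26785806-26786105, + strand: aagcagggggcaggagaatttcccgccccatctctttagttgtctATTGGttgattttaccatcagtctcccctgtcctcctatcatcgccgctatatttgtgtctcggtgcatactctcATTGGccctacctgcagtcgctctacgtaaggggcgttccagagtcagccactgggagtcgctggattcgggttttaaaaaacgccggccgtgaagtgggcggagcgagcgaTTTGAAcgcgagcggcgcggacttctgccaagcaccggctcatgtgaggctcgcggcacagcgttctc
CDCA8, chr1:37692266-37692565, + strand: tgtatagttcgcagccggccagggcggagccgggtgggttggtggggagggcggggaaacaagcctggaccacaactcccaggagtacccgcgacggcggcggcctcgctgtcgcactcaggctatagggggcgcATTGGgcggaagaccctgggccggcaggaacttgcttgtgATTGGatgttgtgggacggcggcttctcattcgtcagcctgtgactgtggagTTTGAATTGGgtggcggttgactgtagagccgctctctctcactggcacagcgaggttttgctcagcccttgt
PLK1, chr16:23678639-23678938, + strand: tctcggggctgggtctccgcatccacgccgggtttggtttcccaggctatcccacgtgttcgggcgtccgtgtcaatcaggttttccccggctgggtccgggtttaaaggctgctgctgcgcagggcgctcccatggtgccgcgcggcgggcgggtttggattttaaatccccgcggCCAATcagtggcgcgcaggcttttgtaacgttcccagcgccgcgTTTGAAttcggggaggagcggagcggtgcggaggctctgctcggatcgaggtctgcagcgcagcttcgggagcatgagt
CKAP2, chr13:52455738-52456037, + strand: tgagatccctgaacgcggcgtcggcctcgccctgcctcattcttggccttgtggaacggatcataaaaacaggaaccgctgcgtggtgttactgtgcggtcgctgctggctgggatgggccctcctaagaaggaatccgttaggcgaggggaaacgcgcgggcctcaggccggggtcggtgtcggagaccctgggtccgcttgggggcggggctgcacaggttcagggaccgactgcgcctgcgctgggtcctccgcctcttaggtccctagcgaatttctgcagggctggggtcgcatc

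Among the 12 lower features, 9 genes had a window in the table, and 5 of them held the CHR and 6 the CCAAT box, with both in BORA, CENPA, CCNF, CDCA8 and PLK1. CKAP2, CENPE and NDE1 held neither and PSRC1 only the CCAAT box. FAM83D, AURKA and the pseudogene AURKAPS1 had no entry. Of the G2/M phase genes tested on the arrays, 26 had a window, 17 (65.4%) with a CHR, 17 (65.4%) with a CCAAT box and 13 (50%) with both. Over all 35116 windows of that length the shares were 15.2%, 34.6% and 5.9%. A match describes the letters of the window and not a bound site.

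Mitotic entry is driven by a chain of kinases, some of whose members are among the 12 lower features. BORA, a cofactor that lets Aurora A activate PLK1, was measured by a probe at chr13:73329356-73329415 (hg19). Its log2 level, relative to the median probe of the array, was 2.48, 3.14, 2.41, 2.72 and 2.60 in DBP 1 to 5 and 3.62, 4.25, 3.59, 3.93 and 3.71 in BP 1 to 5. Each DBP array lay below every BP array. The difference was −1.15 ± 0.13 (SE), with a 95% interval from −1.45 to −0.85 and an adjusted p of 0.235 in the 5 pairs alone, and 0.000179 in the fit of all groups. AURKA, the Aurora A kinase that builds the spindle poles, read 5.82, 5.74, 6.19, 6.05 and 6.05 in DBP and 6.84, 6.41, 6.99, 7.08 and 6.82 in BP. The ranges did not overlap, and the difference was −0.86 ± 0.14 (adjusted p = 0.512; 0.00462 in the fit of all groups). The feature named AURKAPS1, a processed pseudogene that resembles AURKA so closely that its probe may bind AURKA transcripts, differed by −0.91 ± 0.14. PLK1, the kinase that triggers mitotic entry, had 2 features past background, at −0.99 ± 0.19 for the named one and −0.65 for the other. CCNF, whose product is the F-box protein cyclin F, differed by −1.17 ± 0.19, but its levels in pair 2 (−2.93 in DBP and −1.93 in BP) lay far under those of the other pairs (−0.40 to 0.94 in DBP and 1.32 to 1.94 in BP), and 1 array of each group did not have it well above background.

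The genes of the centromere and of the chromosomal passenger complex lay in the same direction. CENPA, the histone H3 variant that marks the centromere, was measured at chr2:27016914-27016973 (hg19) and read 4.25, 4.76, 4.30, 4.33 and 4.25 in DBP against 5.09, 5.60, 5.63, 5.43 and 5.02 in BP. The highest DBP array, replicate 2, lay below the lowest BP array, replicate 5. The difference was −0.98 ± 0.15 (adjusted p = 0.496; 0.00503 in the fit of all groups). CDCA8, the passenger complex subunit borealin, differed by −0.80 ± 0.14, from 7.74 ± 0.10 (SD, n = 5) in BP to 6.94 ± 0.11 in DBP, with no overlap. CENPE, a kinesin of the kinetochore, differed by −0.75 ± 0.14, with both pair 2 arrays above all others, so that the groups overlapped while every pair lay in the same direction. NDE1, which helps dynein at the kinetochore and centrosome, differed by −0.90 ± 0.17 for the named feature (−0.49 after normexp) and by −0.35 for its other feature.

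The last of the 12 act on spindle microtubules. FAM83D brings casein kinase 1 to the spindle, and its difference of −1.03 ± 0.15 came from 4.40, 4.70, 4.64, 4.82 and 4.86 in DBP against 5.65, 5.48, 5.73, 5.99 and 5.72 in BP, again without overlap. CKAP2, a microtubule-associated protein of the spindle, had its difference of −0.77 ± 0.13 (−0.91 for the other feature) spread over a narrow range of pairs, from −0.84 in pair 5 to −0.69 in pair 2. PSRC1, a regulator of spindle microtubules, differed by −0.79 ± 0.15. Of the 12 features, 7 had groups that did not overlap, against 22 of all features tested (0.181%) in that direction. The features were chosen for their size and p, so these values describe them and give no separate test. BORA, FAM83D, AURKAPS1, CENPA, AURKA, CKAP2, CDCA8, NDE1, PSRC1 and PLK1 passed in the fit of all groups, and CCNF and CENPE did not.

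**Figure D2:**
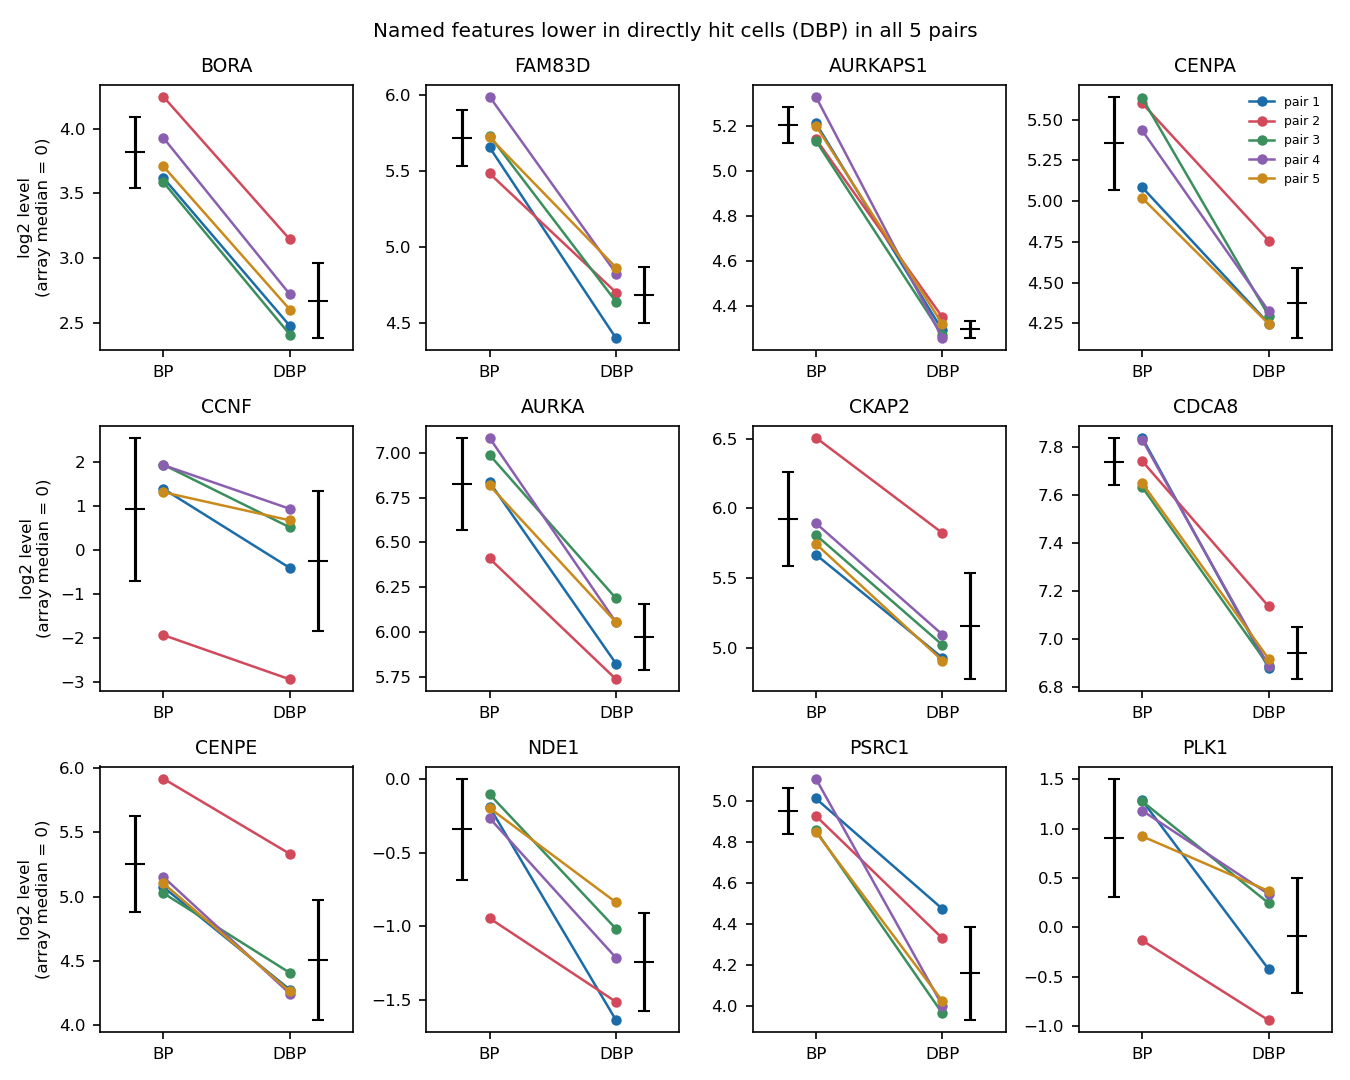
Log2 level (y axis, median probe of each array at 0, scale differs by panel) of the 12 named features lower in DBP, with a line for each pair of arrays and the mean ± SD of each group (n = 5) beside it. Every line goes down from BP to DBP, and pair 2 lies apart from the other pairs in CCNF, CKAP2 and CENPE.

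The pattern held over the G2/M phase genes, a list of 54 genes. All 54 passed the background criterion, 31 of them also varied enough over the series to be tested, and all 31 of those were lower in DBP (100%, against 43.8% of all features tested). The filter on variation used all arrays of the series, direct ones among them, so it can favour members that differ between direct and bystander cells. Of the 31, 21 were lower in all 5 pairs (67.7%), where 2.81% of all features tested were, and 12 had an unadjusted p under 0.006, where 0.328% of all features did. None was called at the threshold of the study in the 5 pairs alone. The median difference of the 31 was −0.54, with a range from −0.98 for CENPA to −0.08 for TUBB4B, beside a median of 0.04 over all features tested. Over all 54 the median was −0.37, beside 0.05 for the 20079 features past background, and 48 were lower, 28 of them in all 5 pairs, where 2.53% of the features past background were. The list was chosen with earlier results of these data known, so its count is a description.

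The members differed among themselves. Beyond those above, G2E3, a ubiquitin ligase gene named for its expression in G2, differed by −0.79, GAS2L3 by −0.68, the cytokinesis regulator ECT2 by −0.62, the cytokinetic kinesin KIF23 by −0.60 and MKI67, the proliferation antigen Ki-67, by −0.59. HMMR, a spindle protein, and NUF2, of the kinetochore (−0.52 and −0.50), were not tested, as they did not vary 1.3-fold often enough over the series, yet were lower in all 5 pairs. At the other end, CDK1, the main mitotic kinase, differed by −0.003, CCNB2 by 0.03, UBE2C by 0.06, BIRC5 by −0.04 and TOP2A by −0.19. Of these, CDK1, CCNB2, UBE2C and BIRC5 were not among the 31 tested, whose values ended at −0.08. CDK1 read 6.25, 7.19, 7.13, 7.07 and 6.90 in DBP against 6.73, 7.06, 7.02, 7.09 and 6.66 in BP. The lower levels were therefore not shared by all genes of the list, and CDK1, CCNB2, UBE2C and BIRC5 lay in different directions in different pairs.

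S phase genes did not follow. Of 43, 18 were tested, 11 higher and 7 lower, none in the same direction in all 5 pairs, with a median of 0.09, with NASP, a histone chaperone, at 0.48 ± 0.21, the helicase subunit MCM4 at 0.26 and the ribonucleotide reductase subunit RRM2 at −0.44. The list of CDK inhibitors and G1 cyclins had a median of −0.001 over 15 tested members. E2F1 and E2F2, which drive entry into S phase, were both at 0.35, the former higher in all 5 pairs, and CDKN1C, the CDK inhibitor p57, was at 0.48. Among the DNA damage checkpoint and repair genes, 17 of 48 were tested with a median of 0.01, FANCC at 0.25 and XRCC2 at 0.26. PIF1, a DNA helicase whose transcript is known to peak at G2 and mitosis, was at −0.96 ± 0.25 and lower in 4 of 5 pairs. PIF1 passed in the fit of all groups (adjusted p = 0.00437).

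By pair of arrays, the median difference of the 31 G2/M genes was −0.74, −0.36, −0.64, −0.57 and −0.23 in pairs 1 to 5, all below 0. It lay between −0.59 and −0.45 whichever pair was left out, and was −0.50 without pairs 1 and 2, whose BP arrays were the dimmest. The fit with slide as a block, which rests on the pairs that shared a slide, gave −0.58.

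**Figure D3:**
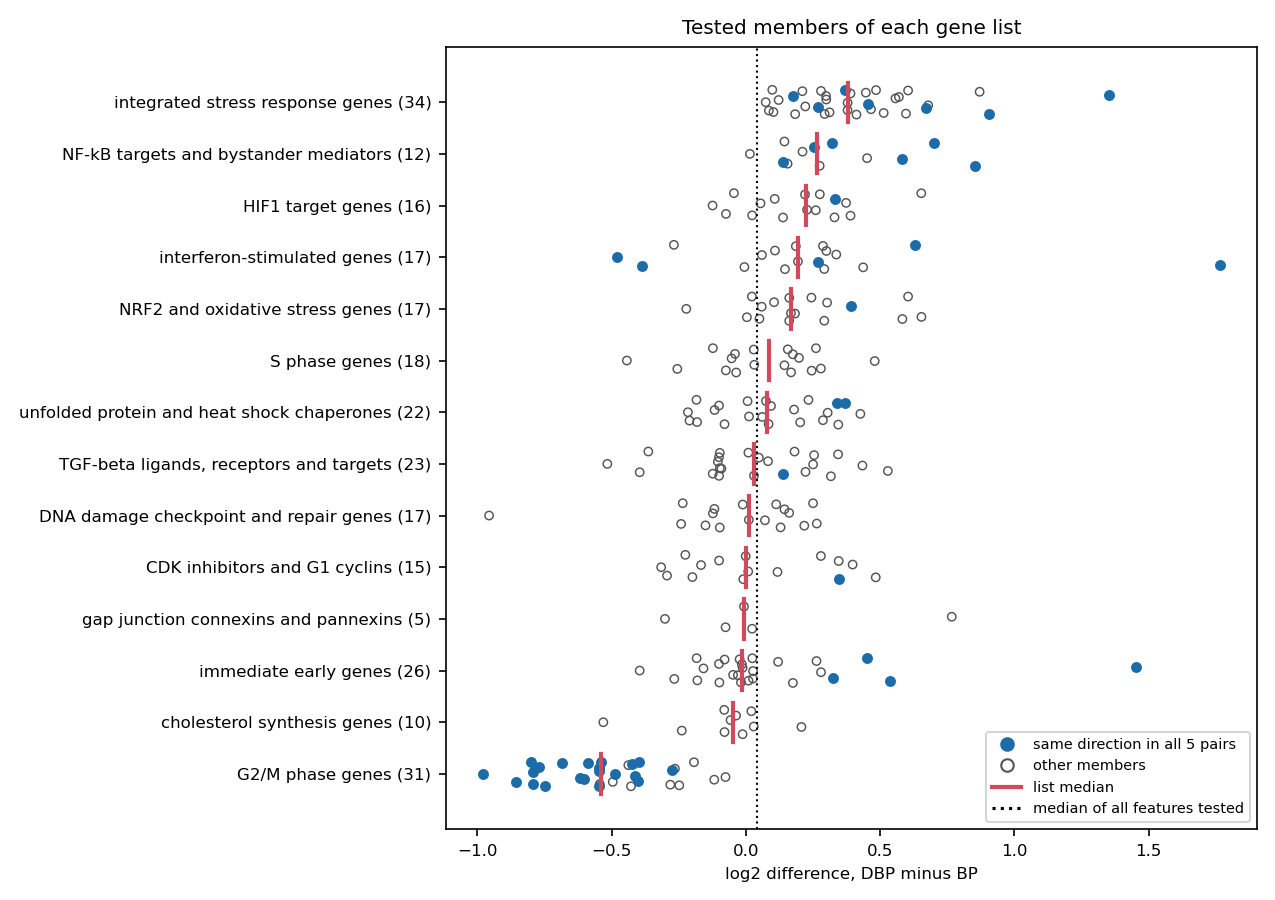
Log2 difference between DBP and BP (x axis) for each tested member of 14 gene lists (y axis, number of tested members in brackets), with the list median as a red bar and the median of all features tested as a dotted line. Filled points lay in the same direction in all 5 pairs; the G2/M list has 21 of these, all negative, and the other medians lie between −0.05 and 0.38.

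Genes of NF-kB signalling lay higher in the directly hit cells. RELB, the NF-kB subunit of the non-canonical branch and itself a target of the pathway, read 8.51, 9.25, 8.30, 8.32 and 8.23 in DBP 1 to 5 and 7.68, 8.37, 7.63, 7.65 and 7.03 in BP 1 to 5. Pair 2 was the highest in both groups, so that BP 2 lay above 3 of the DBP arrays, while every DBP array was above its own partner. The difference was 0.85 ± 0.15 (SE), 1.81-fold, with an adjusted p of 0.532 in the 5 pairs alone and 0.00445 in the fit of all groups. TRAF1, a signalling adaptor of the TNF receptor family and a target of NF-kB, read 2.11, 2.52, 1.71, 2.12 and 1.85 in DBP and 1.27, 1.54, 1.23, 1.70 and 1.07 in BP. The lowest DBP array, replicate 3, lay just above the highest BP array, replicate 4, and the difference was 0.70 ± 0.15 (adjusted p = 0.723; 0.0259 in the fit of all groups). NFKBIA, the inhibitor that NF-kB induces against itself, was at 0.58 ± 0.18 and higher in all 5 pairs, between 0.16 in pair 3 and 1.17 in pair 1 (adjusted p = 0.723; 0.0816 in the fit of all groups).

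The list of NF-kB targets and bystander mediators has 30 genes. Of these, 16 passed the background criterion and 12 were tested, and all 12 were above 0 (100%, against 56.2% of all features tested). In all 5 pairs, 6 were higher, where 6.75% of all features tested were, and the median of the 12 was 0.26 beside 0.04 over all features. The others of the 6 were CXCL1 at 0.32, NFKB2 at 0.25 and TGFB1 at 0.14. The pair medians were 0.28, 0.33, 0.27, 0.31 and 0.49, and without pairs 1 and 2 the list median was 0.30. The secreted factors most often named as bystander signals gave no such values: IL6, IL8, IL1B, TNF, PTGS2 and NOS2 did not pass the background criterion, and no level of theirs is given. After 75th percentile scaling, 10 of 11 tested members stayed above 0, and after normexp 11 of 12.

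Immediate early genes were split. The list median was −0.01 over 26 tested members, and the 3 members of the NR4A family of orphan nuclear receptors, which are induced within hours by many stresses, stood above it together. NR4A1 read 0.72, 1.51, 0.54, 0.68 and 0.25 in DBP and −1.03, −0.67, 0.45, −0.05 and −2.27 in BP. Every pair was higher in DBP, but pair 3 by only 0.09 and pair 5 by 2.53, and BP 3 overlapped the DBP range. The difference was 1.45 ± 0.34, 2.74-fold, and 0.88 after normexp. NR4A3 was at 0.54 ± 0.14 and NR4A2 at 0.45 ± 0.15, both higher in all 5 pairs. None of the 3 passed in the fit of all groups, nor did FOSB at 0.33, the only other member of the list in the same direction in all 5 pairs. These 4 were 15.4% of the tested members, against 6.75% of all features higher in all 5 pairs.

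The other named features that were higher in DBP are more varied. RRAD, a small GTPase related to RAS, was at 0.66 ± 0.18, CHST15, a sulfotransferase for chondroitin sulfate, at 0.59 ± 0.14, and POFUT1, which adds O-fucose to NOTCH receptors, at 0.97 ± 0.24. For POFUT1 the other feature past background was at −0.22, so the features of this gene disagree in sign. C3orf32 (now SSUH2) was at 0.64, C20orf195 at 0.66, the transcript LOC284219 at 0.63, the pseudogene ANKRD19P at 0.68 (0.49 for its other feature), and 2 probes without a gene, A_33_P3519223 and A_33_P3343605, at 1.12 and 1.01. TRAF1 and ANKRD19P were the 2 of the 12 whose groups did not overlap, against 47 of all features tested (0.386%) in that direction.

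**Figure D4:**
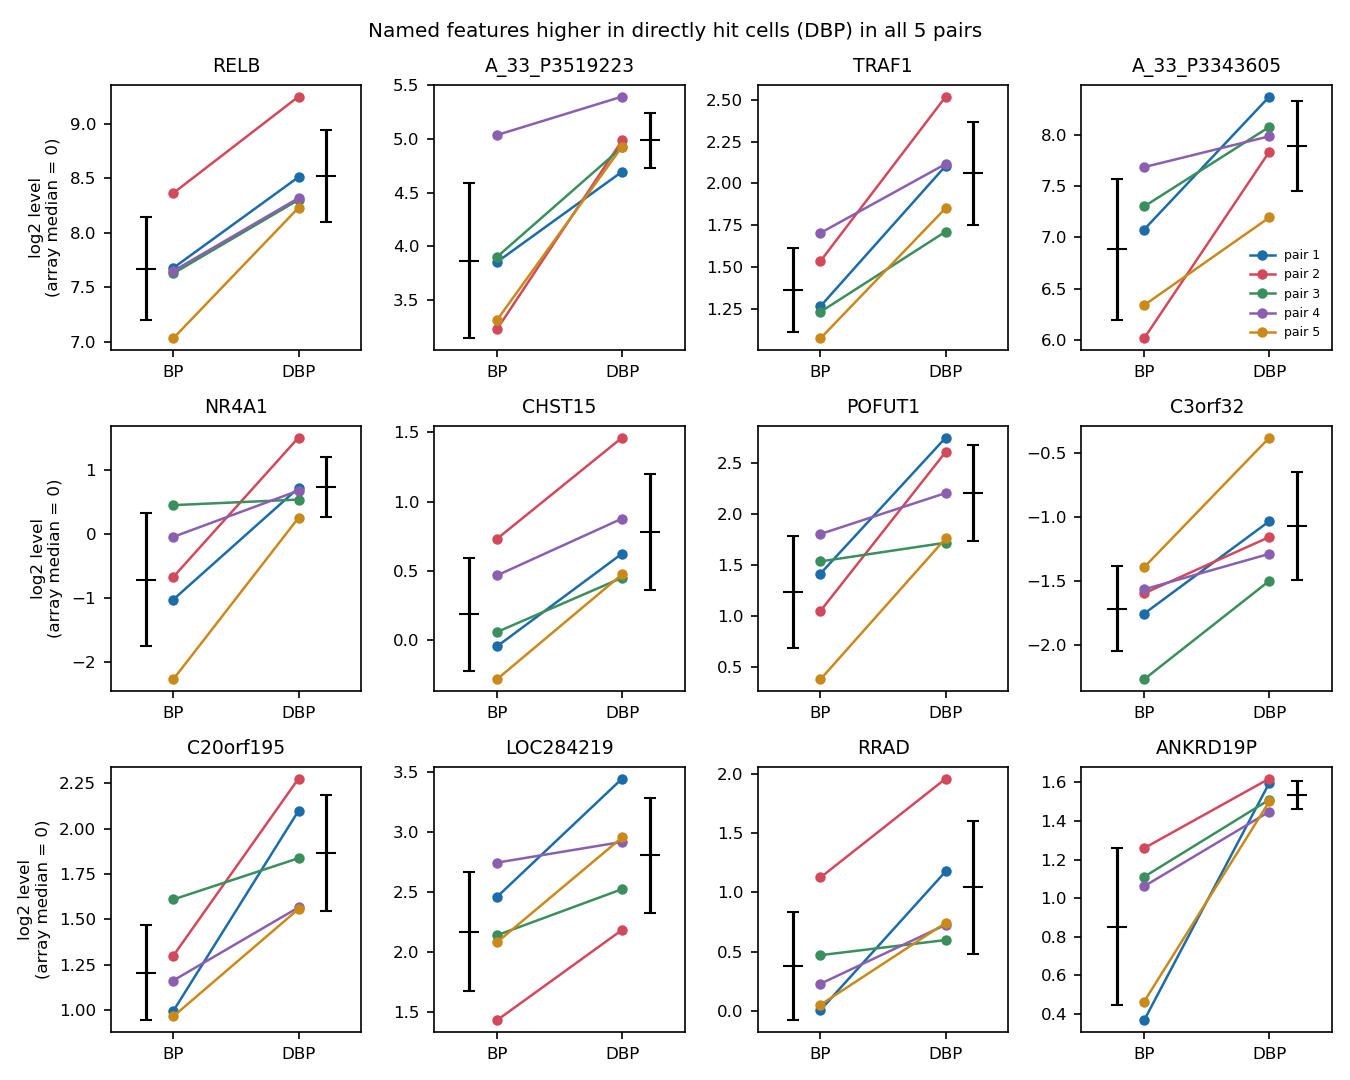
Log2 level (y axis, median probe of each array at 0, scale differs by panel) of the 12 named features higher in DBP, with a line for each pair of arrays and the mean ± SD of each group (n = 5) beside it. Every line goes up from BP to DBP, with pair 3 nearly flat for NR4A1 at 0.09 and pair 5 steep at 2.53.

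The integrated stress response, in which the factor ATF4 switches on genes for amino acid supply and chaperones, had the highest median of the lists shown, and pair 1 set its size. All 34 tested members were above 0 (100%, against 56.2% of all features tested), with a median of 0.38, and 7 were higher in all 5 pairs (20.6%, against 6.75%). The pair medians were 1.36, 0.19, −0.002, 0.06 and 0.35, and without pair 1 the median over the list was 0.14. The mean log2 level of the list was high in replicates 1 and 2 of the unirradiated cells too (6.72 and 6.88, against 5.11 to 5.14 in CTL 3 to 5) and in BN 1 and 2 (6.97 and 7.13), as in DBP 1 and 2 (6.61 and 7.40) and BP 2 (7.19). BP 1, at 5.15, did not share that level, and DBP 1 was not above CTL 1, so the difference of pair 1 comes with a low BP 1 and not with a DBP 1 above the unirradiated array of the same number. NUPR1, a stress-induced chromatin protein, read 6.77, 6.75, 1.99, 2.57 and 2.32 in DBP against 1.95, 6.27, 1.89, 1.92 and 1.62 in BP. DBP 1, DBP 2 and BP 2 were high and the other 7 arrays low, and these 3 were also the arrays with the lowest 5′ to 3′ index. JDP2, a repressor of the AP-1 family, showed the same 3 high arrays, at 7.51, 7.49 and 7.27, with the others between 4.21 and 5.39. In CTL 1 and 2 and BN 1 and 2, where the list was also high, the index was −1.70, −1.60, −1.78 and −1.55, beside −1.56 to −1.38 in the low arrays of DBP and BP. DBN 2, the H1299 array with the highest list level (7.45), had an index of −1.90. CTL 3, low on the list (5.14), had an index of −1.63. The part of the index in these levels was not tested. Also among the members were CHAC1, which breaks down glutathione, at 0.87 and the methionyl-tRNA synthetase gene MARS at 0.68. GDF15, a stress cytokine outside this list, was likewise high in DBP 1, DBP 2 and BP 2 (5.67, 8.70 and 8.59) and between 2.94 and 3.92 in the other 7 arrays of DBP and BP.

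Of 17 tested interferon-stimulated genes, 13 were above 0 (76.5%, against 56.2% of all features), with a median of 0.19, and 2 were lower in all 5 pairs (11.8%, against 2.81%). IFIT1 read 2.35, 3.25, 2.46, 2.18 and 2.31 in DBP against 2.77, 3.56, 2.98, 2.83 and 2.80 in BP, lower in every pair (−0.48 ± 0.14), and GBP1 was lower in every pair at −0.39. APOL6 (1.77 ± 0.48), IFITM1 (0.63 ± 0.28) and IRF1 (0.27 ± 0.13) were higher in every pair (17.6%, against 6.75%), and for APOL6 the pairs ran from 0.57 to 3.99.

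Of the remaining lists, HIF1 targets had a median of 0.22 over 16 tested members, with the glucose transporter SLC2A1 at 0.39, PFKFB4 at 0.33 and P4HA2 at 0.37, and the NRF2 and oxidative stress list 0.17 over 17, with ABCC3 at 0.65, AKR1C3 at 0.39 and the ferritin gene FTH1 at 0.30. Unfolded protein and heat shock chaperones had a median of 0.08 over 22, with HSPB1 at 0.43, HERPUD1 at 0.37 and HSPA5 at 0.34. The TGF-beta list had a median of 0.03 over 23, with CTGF at −0.40 and SKIL at −0.36. Cholesterol synthesis genes had a median of −0.05 over 10, with SC5DL at −0.53, SC4MOL at −0.24 and TM7SF2 at 0.21. Among connexins and pannexins, which form or resemble gap junctions, 5 of 18 were tested with a median of −0.01, and PANX2 was at 0.77 ± 0.44. No member of these 6 lists passed at the threshold of the study, and at an unadjusted p under 0.006 none did either.

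The same contrast, direct minus bystander, was measured in further arrays, which did not enter the p and the pair counts that chose the named features but did enter the filters on background and on variation. In H1299 dishes without a bystander response (DBN minus BN), all 12 lower features were lower on average (100%, against 60.7% of all features), between −1.62 and −0.56. In all 5 pairs, 10 of them were lower, where 5.11% of all features were. Pair 1 of DBN minus BN had a median of −0.51 over all features, a shift that enters the averages. Its DBN array had 83.4% of probes well above background, the highest share of the series. In responding dishes of H1299shRAD9, all 12 were lower in all 5 pairs, where 3.82% of all features were. Their averages lay between −1.08 and −0.63, and 46.6% of all features were lower on average. BORA was at −1.33 in the former and −1.08 in the latter. Of the 12 higher features, 8 were above 0 on average in DBN minus BN (66.7%, against 39.3% of all features) and 1, NR4A1 at 1.21, in all 5 pairs (1.19% of all features). In H1299shRAD9 9 were above 0 on average (75%, against 53.4%) and 2, NR4A1 at 0.68 and TRAF1 at 0.18, in all 5 pairs (2.9% of all features). RELB was at 0.50 in the former and 0.41 in the latter, higher in 4 of 5 pairs each. Over all 12186 features the likeness was small. The differences correlated with those of DBN minus BN at r = 0.24 and with those of H1299shRAD9 DBP minus BP at −0.02. Between the pairs of H1299 DBP minus BP themselves, r ran from −0.55 (pairs 3 and 5) to 0.40 (pairs 2 and 5).

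The difference between these contrasts was itself tested. No feature had an interaction past the threshold, either with H1299shRAD9 (0%, with 535 features under 0.05 before adjustment and 0.775 as the lowest adjusted p) or with DBN minus BN (0%, with 329 features and 0.990), by limma with cell line or dish class and replicate as blocks. Neither count exceeds a share of 0.05 of the features tested, which is expected where nothing differs. For BORA the difference from H1299shRAD9 was −0.07 (95% interval −0.39 to 0.24) and from DBN minus BN 0.17 (−0.53 to 0.88), intervals that leave room for sizeable differences. For RELB they were 0.45 (0.03 to 0.86) and 0.35 (−0.23 to 0.93), and for TRAF1 0.52 (0.15 to 0.88) and 0.49 (−0.01 to 0.99). The estimates were larger in H1299 responding dishes for both features, but both intervals from DBN minus BN include 0. The H1299 arrays that chose these features enter the interactions, so the values are not an independent test.

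The G2/M list was below 0 in all 4 sets of paired arrays. Its pair medians averaged −0.51 ± 0.21 (SD, n = 5 pairs) in H1299 DBP minus BP, −0.67 ± 0.50 in DBN minus BN, −0.42 ± 0.26 in H1299shRAD9 DBP minus BP and −0.55 ± 0.22 in H1299shRAD9 DBN minus BN, and was below 0 in every pair of each. The NF-kB list averaged 0.33 ± 0.09, 0.25 ± 0.31, 0.12 ± 0.07 and 0.21 ± 0.11. In pair 1 of DBN minus BN the median over all features was itself −0.51. The integrated stress response list averaged 0.39 ± 0.56, −0.13 ± 0.68, 0.11 ± 0.20 and 0.06 ± 0.15, a spread between pairs that covers its own mean in every set.

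**Figure D5:**
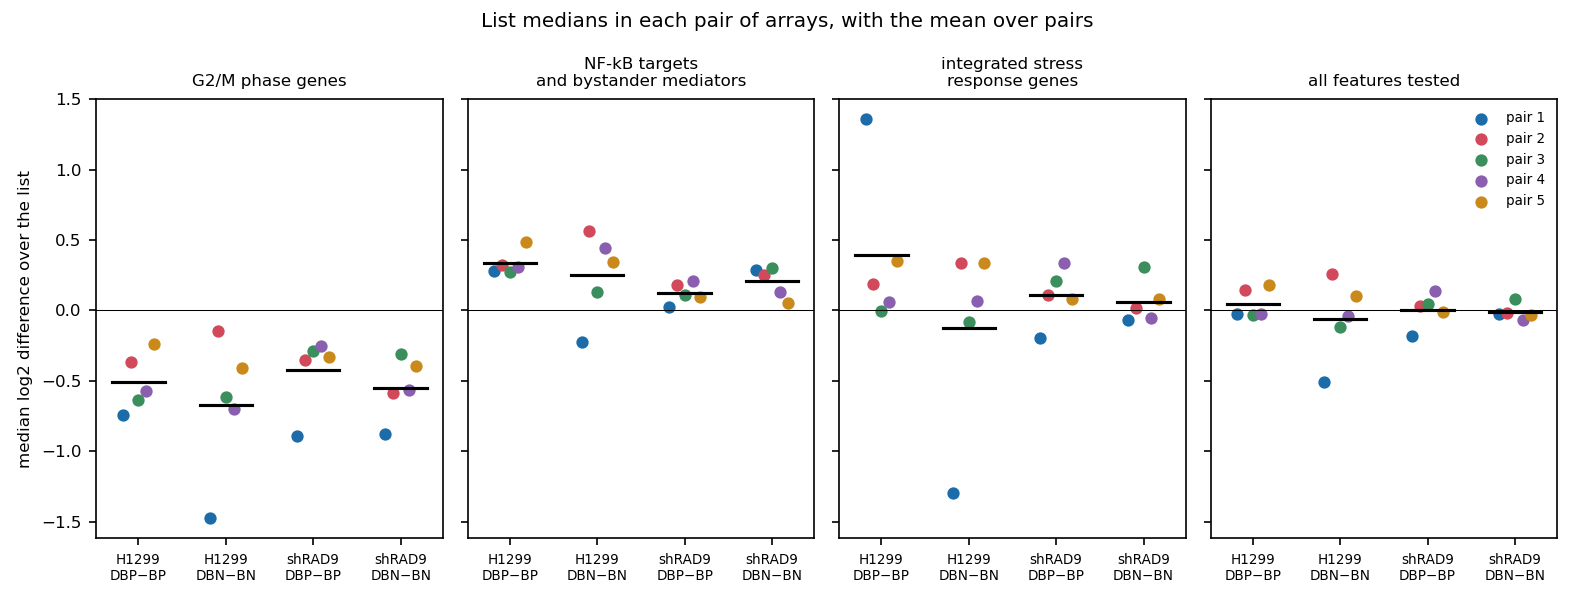
Median log2 difference, direct minus bystander (y axis), over the tested members of 3 gene lists and over all features, for each pair of arrays (points) and their mean (bars) in the 4 sets named on the x axis. All G2/M points are below 0; for the integrated stress response, pair 1 lies apart at 1.36 in H1299 DBP minus BP and −1.29 in H1299 DBN minus BN.

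Levels were also set beside the other H1299 groups, with no test. Of the 12 lower features, PSRC1 had all BP arrays (4.85 to 5.11) below all CTL arrays (5.15 to 5.40), and the other 11 overlapped between BP and CTL. The share of all features that overlap between BP and CTL was not computed. Even between DBP and BP only 69 of 12186 features had groups that did not overlap. An overlap alone therefore does not place BP at the level of CTL. BORA ranged from 3.76 to 4.19 in CTL and from 3.42 to 4.18 in BN, beside 3.59 to 4.25 in BP, and from 1.64 to 3.39 in DBN beside 2.41 to 3.14 in DBP. CENPA ranged from 5.33 to 5.50 in CTL, 5.13 to 5.79 in BN and 3.46 to 4.97 in DBN, beside 5.02 to 5.63 in BP. AURKA ranged from 6.89 to 7.49 in CTL, 6.66 to 7.17 in BN and 5.03 to 6.24 in DBN, beside 6.41 to 7.08 in BP, where 3 of 5 arrays lay below all CTL arrays. RELB had medians of 7.74 in CTL, 7.73 in BN and 8.28 in DBN. For the probe A_33_P3519223 the CTL arrays (4.47 to 5.27) lay with DBP (4.69 to 5.39), and 4 of the BP arrays (3.23 to 3.90) were below all of them.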

How the data were processed

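RNA of 50 samples (10 groups of 5) was hybridised to Agilent one-colour arrays. The deposited intensity values came from Feature Extraction 11.5.1.1, which per the file headers had subtracted background; per the labels and methods the authors then took log2 values, and these deposited log2 values, median normalized, served as an alternative. For the present values, log2 background-corrected intensity was set to an array median of 0 after dropping flagged spots and averaging spots of a probe. Of 34127 probes, 20079 passed background (features bad or not well above background on at least 25% of the 50 arrays were dropped), and 12186 also differed 1.3-fold from their median on at least 20% of the arrays. limma 3.58.1 (R 4.3.3) was fitted to the 10 arrays with the replicate number as a block, with Benjamini-Hochberg adjustment, and checked on simulated data. The methods state that each bystander dish gave its own outer sample, while the labels give only the number. Over the tested features the deviations of same-numbered arrays correlated between 0.0905 and 0.818 (mean 0.371, against −0.0617 for other numbers). The gap was widest in pair 2 (0.818, against −0.391) and nearly absent in pair 5 (0.0905, against 0.0730), so for pair 5 the correlation does not show a shared dish. The number of arrays limits the precision, and nothing used here says how separate the cultures were, so the p-values measure the spread between these samples.

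Named features were the 12 with the smallest p in each direction among those alike in all 5 pairs and at least 1.5-fold apart, since none passed, with the 3 members of largest moderated t in each of 17 gene lists. Other members were named after their values were seen, mostly for lying alike in all 5 pairs or near 0. For genes with more than 1 feature the brightest is given, unless the rule named another. Of 519 list genes, 517 were matched by symbol, 1 by a synonym and 1 not. Some genes and lists that the rule names are not reported here. The members and lists were chosen with earlier results of these data known. Array names are those of the design on hg19. Alternatives covered scaling, background correction, filters, test, block, slide, samples and replicates.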

Additional observations from a re-analysis of the deposited data

Results flagged for a closer look

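In 65 sets of 5 values, 14 held a highest or lowest value with a gap to its neighbour past Dixon's 95% limit, which chance gives in about 1 of 20 sets, and related genes do not count as separate sets. Pair 2 held 11 of the 14.

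Among the mitotic genes, DBP 2 stood high for CENPA (4.76, others 4.25 to 4.33), CDCA8 (7.13, others 6.88 to 6.92), CKAP2 (5.82, others 4.91 to 5.09) and CENPE (5.33, others 4.25 to 4.41). BP 2 stood high for CKAP2 (6.51, others 5.67 to 5.89) and CENPE (5.92, others 5.03 to 5.15). BP 2 stood low for CCNF (−1.93, others 1.32 to 1.94), NDE1 (−0.94, others −0.26 to −0.10) and PLK1 (−0.13, others 0.92 to 1.29). RELB stood high in DBP 2 (9.25, others 8.23 to 8.51).

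The mean log2 level of the integrated stress response genes was 7.19 in BP 2 and between 4.98 and 5.32 in the other BP arrays. Replicate 2 was also high in the other H1299 groups (6.88 in CTL, 7.13 in BN, 7.45 in DBN and 7.40 in DBP), and replicate 1 in CTL, BN and DBP (6.72, 6.97 and 6.61) but not in BP (5.15). The median difference of that list was 1.36 in pair 1 and between −0.002 and 0.35 in the other pairs. For the NF-kB list the median difference was 0.49 in pair 5 and between 0.27 and 0.33 in the others. DBP 1 had 68.7% of its probes well above background, where the other DBP arrays had 63.1% to 63.7%.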

How the results depend on the processing

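All 24 named features kept their direction under every alternative that could be run (20 each, 19 for NDE1 and PLK1), and with the 5 pairs alone none passed the threshold. They were chosen as alike in all 5 pairs, so most alternatives could not reverse them. Those were the fits without replicates, with other blocks, filters or tests, and with all groups. Only the changes of scaling and background correction and the authors' processed values could. The size of the named differences moved by over 1.5 times for NDE1 (−0.49), NR4A1 (0.88) and C3orf32 (0.33) after normexp, and for A_33_P3343605 (0.65), C20orf195 (0.41) and RRAD (0.44) without replicates 1 and 2. The count of calls, 0 by limma with 739 features at an unadjusted p under 0.05 (0 and 737 by the random-variance test of the methods), was 3 with the 5 groups of H1299 in one fit, 30 with all 10 groups and 6 after normexp. The 6 were ITGAM, LOC100132147, FMO1, CASP2, APOL6 and NHLH2, all higher in DBP and none of them among the 24. FMO1 differed by 2.32 after normexp. In the main values, where it did not pass, it differed by 7.26 and 4.93 in pairs 1 and 2, whose BP arrays were the dimmest, and by −0.50 in pair 4. Without the replicate block no feature passed either (smallest adjusted p 0.370 by limma), and 258 features had an unadjusted p under 0.05; the block changed no other call. Leaving out each replicate in turn gave 0 to 0 calls for the comparison and for both interactions. At p under 0.006 the split of lower to higher was 24 to 40 without replicate 3, 36 to 5 without replicate 1, 24 to 3 without replicate 2, 23 to 28 without replicate 4, 20 to 34 with slide as a block, 41 to 8 in the authors' processed values and 19 to 0 without replicates 1 and 2, an alternative chosen after seeing the data. The list medians were also recomputed under all alternatives after seeing the data. The G2/M median ranged from −0.59 to −0.37 and the NF-kB median, 0.26, fell to 0.164 after normexp and 0.165 without a filter on dim features. The integrated stress response median ranged from 0.12 to 0.53, lowest without replicates 1 and 2, and was 0.14 without replicate 1. The causes of these shifts were not tested.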

Other observations

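Beyond the lists, the features that passed when all 10 groups were fitted together held further genes of mitosis that were lower in DBP, among them KIF14, a kinesin of cytokinesis (−0.54), TROAP (−0.75), DEPDC1 (−0.89) and the pseudogene RACGAP1P (−0.75). ARL6IP1 (−0.79), STARD8 (−0.65), FAM72A (−0.96) and FAM72D (−0.93) were lower as well, and the near-identical FAM72 copies may share probes. The genes higher in DBP that passed in that fit, apart from RELB, TRAF1 and NFKBIA, were PLXND1, a semaphorin receptor (0.60), PTPRS, a receptor phosphatase (0.55), ULK2, a kinase of autophagy (0.59), and the transcripts LOC100132147 (1.89) and LOC100130027 (0.80). These genes were named after their values were seen.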
